A study of Rattus norvegicus with 9 samples.

Results

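E-cadherin, claudin and tight junction genes were described by name in rat pXEN cells, the cultured stem cells of the primitive extraembryonic endoderm. The rule named 10 genes: Cdh1, Cldn4, Cldn6, Cldn7, Epcam, Lsr, Tjp1, Ocln, Cgn and Dsp. Rows were found for 8 of the 10 among 17315 genes, all 8 passed the filter on low counts that left 9130 genes to test, and Cgn and Dsp were not analysed here. The 9 RNA-seq libraries were all of 1 line, RX1 (WKY rat strain), with 3 for each of the culture media T, LPE and CPE. T cultures grew on fibronectin in the traditional medium, which held the glucocorticoid dexamethasone at 0.5 µM, 2% fetal bovine serum, and Pdgf, Egf and Lif at 10 ng/ml each. LPE cultures grew on collagen I without serum or dexamethasone, with the same 10 ng/ml of Lif, Pdgf and Egf. CPE cultures had 1 µM Chir99021, an inhibitor of the kinase Gsk3, in place of Lif. Coating, basal medium, serum and dexamethasone thus all differ between T and the other media and cannot be told apart. In comparisons with CPE, the absence of Lif and the presence of Chir99021 cannot be told apart either. Separate cultures are not named in the labels for the 3 libraries of a medium. The p-values thus reflect how far libraries spread within a medium, pooled over the 3 media, possibly a technical spread.

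Epithelial cells hold together through several junctions at their sides. In the adherens junction E-cadherin, the product of Cdh1, binds E-cadherin of the next cell and is tied to actin by catenins. In the tight junction, claudins and occludin form strands that seal the space between cells, Tjp1 (ZO-1) is the scaffold under them, and Lsr marks the corners where 3 cells meet. Desmosomes, to which desmoplakin (Dsp) belongs, tie the junction to keratin filaments. Visceral endoderm in the embryo is an epithelium with such junctions, whereas parietal endoderm cells are loosely connected and migratory.

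Counts assigned to genes were 1698764 to 2161228 per library in T, 3119049 to 3233526 in LPE and 3127352 to 4418465 in CPE. Levels are counts per 1e+06 counts of the genes tested (CPM), scaled by TMM, and 1 count was worth 0.227 to 0.579 CPM. Libraries of one medium varied more in LPE and CPE than in T: for genes with 20 to 99 counts summed over a pair of replicates, the variance between the pair was 1.35 to 2.05 times that of sampling in T, 9.93 to 15.6 times in LPE and 7.38 to 11.7 times in CPE. The endoderm label held in that all 7 endoderm markers, among them Gata4, Gata6 and Sox17, were detected in every medium. Their summed levels were 2383 to 3169 CPM over the 9 libraries. Single markers did move by the test described below. In LPE against T 2 rose and 1 fell, and in CPE against T 4 rose and 2 fell. That is 42.9% and 85.7% of them, where 29.7% and 32.1% of all genes were called. With 1 library left out, 2 or 3 rose in LPE and 2 to 4 in CPE. Sox17 had 1190 ± 168 CPM (mean ± SD) in T, 984 ± 81.1 in LPE and 660 ± 99.1 in CPE. Of 7 fibroblast markers, 3 had counts in T (Col1a1, Col3a1 and Thy1, summed 1.39 to 32.4 CPM, highest in replicate 2), none in LPE and 1 in CPE. Of the trophoblast markers 5 had rows, and their summed level was 0.465 to 0.579 CPM in T, 0 to 1.92 in LPE and 14.3 to 29.96 in CPE, from Cdx2, Elf5 and Tpbpa. Elf5, the only one that passed the filter, did so through its CPE libraries alone, with 1 count in each T library and 0 in LPE. It was called higher in CPE than in both other media, a result set in part by that filter. Its call against T was lost without any 1 T library, CPE replicate 1 or CPE replicate 2, or with a replicate block. Of the epiblast markers 5 had rows, and their summed level was 0.579 to 2.18 CPM in T, 0 in LPE and 0 to 1.93 in CPE, all from Utf1. Nanog and Sox2 of the epiblast and the 3 squamous markers with rows were at 0 in all libraries.

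Sequence upstream of the members was taken from RefSeq (build GRCr8, which is not the rn6 build of the counts), because Snail and Zeb factors, repressors of E-cadherin and of several claudin genes, bind the E-box letters CAGGTG, which read on the opposite strand as CACCTG. A promoter entry of 250 bases before the gene's start was found for 8 of the 10 members, 6 of them measured (Cldn6, Cldn7, Epcam, Lsr, Ocln and Tjp1), and Cdh1 and Cldn4 were not matched. The letters occurred in 5 of the 6, with 12 matches in all, the exception being Tjp1. For comparison, 15.9% of the 33469 promoters in the table and 14.2% of the 7400 promoters of genes tested here held at least 1. Cldn7 had 4 matches and Cldn6 had 3, and 10 promoters of the table had 4 or more and 79 had 3 or more. The 4 sequences shown are those of the members with an entry that, unlike Cdh1, were called between CPE and LPE, 5′ to 3′ on the gene's strand with matches in capitals. Capitals in the Cldn6 sequence also mark a Tcf/Lef core, CTTTGAT, which on the opposite strand reads ATCAAAG, the letters bound by the partners of beta-catenin, present in 3.15% of the table's promoters and, of the measured members, only there.
Cldn6, chr10:13215558-13215807, plus strand: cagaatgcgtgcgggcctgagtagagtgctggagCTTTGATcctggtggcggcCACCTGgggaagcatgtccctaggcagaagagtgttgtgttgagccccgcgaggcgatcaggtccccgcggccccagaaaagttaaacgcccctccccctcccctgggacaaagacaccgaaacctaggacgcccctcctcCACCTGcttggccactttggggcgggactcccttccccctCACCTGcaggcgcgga
Cldn7, chr10:55188420-55188669, plus strand: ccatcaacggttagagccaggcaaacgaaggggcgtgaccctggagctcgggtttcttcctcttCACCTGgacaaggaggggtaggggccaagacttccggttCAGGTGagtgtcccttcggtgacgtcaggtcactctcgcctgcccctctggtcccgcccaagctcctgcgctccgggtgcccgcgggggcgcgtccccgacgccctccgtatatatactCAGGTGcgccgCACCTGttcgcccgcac
Epcam, chr6:12649679-12649928, minus strand: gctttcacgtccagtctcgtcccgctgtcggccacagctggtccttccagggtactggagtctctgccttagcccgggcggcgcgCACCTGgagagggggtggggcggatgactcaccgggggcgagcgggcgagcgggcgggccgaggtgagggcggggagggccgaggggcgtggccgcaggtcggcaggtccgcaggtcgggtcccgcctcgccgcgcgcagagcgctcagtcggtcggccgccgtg
Lsr, chr1:95329355-95329604, minus strand: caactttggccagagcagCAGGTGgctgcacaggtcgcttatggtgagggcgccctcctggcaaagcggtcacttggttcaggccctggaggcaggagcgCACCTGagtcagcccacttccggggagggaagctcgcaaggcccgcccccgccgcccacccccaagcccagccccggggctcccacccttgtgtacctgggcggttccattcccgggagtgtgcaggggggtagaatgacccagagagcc
The Epcam match begins 165 bases before the start and those of Lsr 232 and 150 bases before it. In Cldn6 they begin 197, 56 and 16 bases before the start and in Cldn7 186, 147, 28 and 17. The Grainyhead-like core AACCNGTT, on the opposite strand AACNGGTT, bound by Grhl2, was found in the Tjp1 entry alone among the 6, against 1.76% of the table. These are matches of letters, not sites shown to be bound, and base composition was not matched between members and table. It also differed among the 6: G and C made up 30.4% of the Tjp1 entry and 64.4% to 75.6% of the other entries.

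Compared with T, 6 of the 8 measured members rose in LPE and 8 rose in CPE. Cdh1 rose in both media with no called difference between them, whereas Cldn4, Cldn6, Cldn7 and Epcam were higher in CPE than in LPE, and Lsr was highest in LPE. These 5 calls between CPE and LPE became 3 without LPE replicate 3 or without CPE replicate 1, as Cldn7 and Lsr were lost. The counts stand against a background of many changed genes: a call was made for 29.7% of all genes tested in LPE against T (15.0% higher, 14.7% lower), 32.1% in CPE against T (16.8% higher, 15.3% lower) and 17.8% in CPE against LPE (9.56% higher, 8.23% lower). A gene was called at an adjusted p under 0.05 in edgeR's quasi-likelihood test, adjusted by Benjamini-Hochberg over the 9130 genes, and adjusted p-values are of that kind unless another tool is named. The median log2 fold change of the 8 members was 1.05 in LPE against T, 2.55 in CPE against T and 0.80 in CPE against LPE, while that of all genes tested was -0.03, -0.01 and 0.01. The comparisons with T share the T libraries, so they are not independent of each other.

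**Figure D1:**
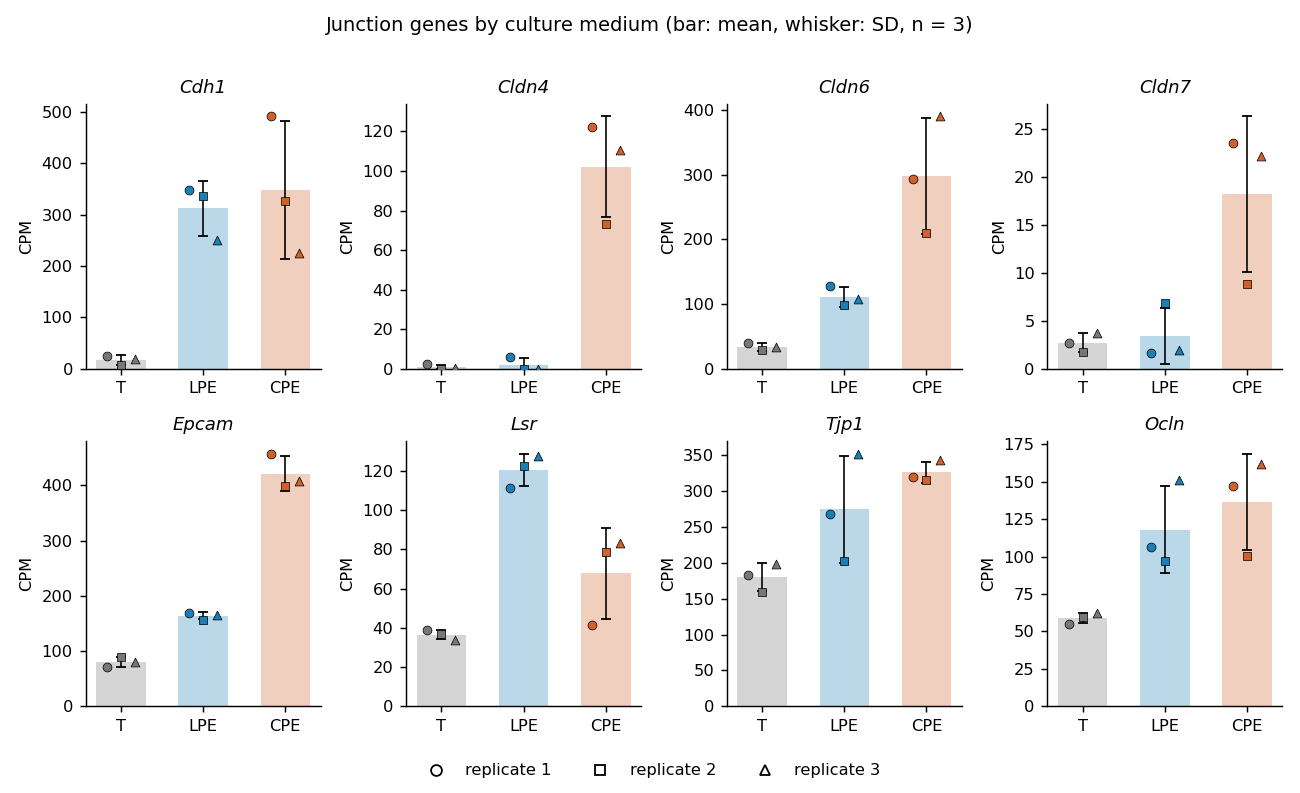
Level of each of the 8 measured members in every library (CPM on a linear axis from 0, 1 point per library, bars at the mean and whiskers at the SD of 3 libraries). Cdh1 separates T from both other media, Cldn4 is far higher in CPE than elsewhere, Cldn7 is low in all media with CPE highest, and Lsr is highest in LPE.

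Cdh1, the gene of E-cadherin, had 25.1, 6.95 and 19.5 CPM in T replicates 1, 2 and 3. It had 348, 337 and 252 CPM in the LPE replicates, in the same order, and 492, 326 and 225 in those of CPE. Every LPE and CPE library was above every T library, and LPE and CPE overlapped. Mean levels ± SD (n = 3) were 17.2 ± 9.298 CPM for T, 312 ± 52.9 for LPE and 348 ± 135 for CPE, and the log2 fold change was 4.16 (SE 0.34, adjusted p = 3.7e-07) in LPE against T and 4.32 (SE 0.34, adjusted p = 2.4e-07) in CPE against T. CPE and LPE did not differ by the test, with a log2 difference of 0.16 and a 95% interval of -0.41 to 0.72. The lowest Cdh1 level was that of T replicate 2, the library with the highest fibroblast sum. Without T replicate 2 the rise was 3.81 on the log2 scale in LPE and 3.97 in CPE. The other T libraries held fibroblast counts too, and the part of such cells in the T levels was not tested. In bulk RNA, a higher level per cell and more cells with the transcript cannot be told apart.

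Epcam encodes a cell adhesion protein of epithelia that binds and stabilises Cldn7. Its level was 72.03, 89.8 and 79.98 CPM in T, 169, 157 and 166 in LPE and 458, 399 and 407 in CPE. The 3 media formed separate steps, T lowest and CPE highest, with no overlap between any pair. The log2 fold change was 1.03 (SE 0.14, adjusted p = 4.0e-05) in LPE against T, 2.39 (SE 0.14, adjusted p = 9.0e-09) in CPE against T and 1.36 (SE 0.13, adjusted p = 2.7e-06) in CPE against LPE. Within a medium its libraries lay closer together than those of Cdh1, and its SE was the smallest of the members.

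Cldn6, a claudin of early embryonic epithelia, showed the same order of media. Its level was 40.4, 28.4 and 33.01 CPM in T, 128, 98.2 and 108 in LPE and 294, 211 and 390.4 in CPE. No libraries overlapped between media, although within CPE the highest was well above the lowest. Its log2 fold change was 1.71 (SE 0.23, adjusted p = 4.8e-05) in LPE against T, 3.13 (SE 0.23, adjusted p = 1.3e-07) in CPE against T and 1.42 (SE 0.21, adjusted p = 2.0e-04) in CPE against LPE.

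Cldn4, a claudin found in many tight epithelia, was close to undetected outside CPE. The counts behind it were 4, 0 and 1 in T, 18, 0 and 0 in LPE and 415, 323 and 343 in CPE. As levels these were 2.18, 0 and 0.465 CPM, 5.75, 0 and 0 CPM and 122, 73.4 and 110.5 CPM, so that all LPE counts came from replicate 1 and all CPE libraries stood far above the other 6. Cldn4 thus needed its CPE libraries to pass the filter on low counts. From the pooled counts the level in CPE was 113 times that in T, with a 95% interval of 48.4 to 349.6 that covers counting error only. Its fitted log2 fold change was 6.79 in CPE against T (SE 0.93, adjusted p = 4.7e-05) and 5.71 in CPE against LPE (SE 0.79, adjusted p = 1.3e-04). The difference between LPE and T was not called (log2 1.08, 95% interval -1.57 to 3.74), and the interval is wide. Without LPE replicate 1, which alone held counts, that value was -4.39 with an adjusted p of 0.0832.

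Cldn7, the claudin that Epcam binds, was low in all media. It had 2.73, 1.74 and 3.72 CPM in T, 1.598, 6.84 and 1.92 in LPE and 23.6, 8.86 and 22.2 in CPE, from 5, 3 and 8 counts, 5, 22 and 6 counts and 80, 39 and 69 counts. The 3 CPE libraries were the highest of the 9, but CPE replicate 2 lay only a little above LPE replicate 2. Cldn7 rose in CPE against T by 2.71 on the log2 scale (SE 0.83, adjusted p = 0.021), a call lost without T replicate 1 (0.0778), T replicate 2 (0.0895), T replicate 3 (0.0563), CPE replicate 1 (0.0674) or CPE replicate 3 (0.0712, adjusted p each). Against LPE the value was 2.38 (SE 0.79) and the adjusted p 0.0498, on the threshold, and it rose above 0.05 in 12 of 16 alternative analyses. Among these were the omission of any T library (adjusted p 0.078, 0.0665 and 0.0764 in order), of LPE replicate 1 (0.0996) or 3 (0.106) and of CPE replicate 1 (0.135) or 3 (0.146). No call was made in LPE against T (log2 0.33, 95% interval -1.44 to 2.09).

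Lsr encodes the receptor that recruits tricellulin to 3-cell corners and also takes up lipoproteins. Its level was 38.7, 37.1 and 33.9 CPM in T, 112, 123 and 128 in LPE and 41.3, 78.8 and 83.1 in CPE. Lsr thus had another order of media than Epcam and Cldn6, with LPE highest and CPE in between, and CPE replicate 1 stood near the T level. It rose by 1.72 on the log2 scale in LPE against T (SE 0.25, adjusted p = 1.2e-04). In CPE against T it rose by 0.89 (SE 0.25, adjusted p = 0.014), which was lost without T replicate 3 (adjusted p = 0.0609), CPE replicate 2 (0.0636) or CPE replicate 3 (0.0655). In CPE against LPE the log2 fold change was -0.83 (SE 0.24, adjusted p = 0.024), lost without LPE replicate 3 (0.0677) or CPE replicate 1 (0.0613). Reads on the strand opposite to Lsr made up 3.19% of its reads, the highest share among the members, whose lowest was 0.

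Tjp1 and Ocln, the scaffold ZO-1 and the strand protein occludin, were higher in both LPE and CPE than in T. Tjp1 had 183, 159 and 199 CPM in T, 269, 203 and 353 in LPE and 319.7, 316 and 344 in CPE. Each LPE and CPE library was above each T library, LPE replicate 2 only just. The log2 fold change was 0.61 in LPE against T (SE 0.17, adjusted p = 0.014) and 0.85 in CPE against T (SE 0.17, adjusted p = 0.0012). The first was lost without T replicate 2 (adjusted p = 0.0749) or LPE replicate 3 (0.0891), where its value was 0.39. Ocln had 55.1, 59.6 and 62.3 CPM in T, 106, 97.3 and 151 in LPE and 147, 100.4 and 162 in CPE, with T below all other libraries. It rose by 1.00 on the log2 scale in LPE (SE 0.22, adjusted p = 0.003) and by 1.21 in CPE (SE 0.22, adjusted p = 6.5e-04). LPE and CPE did not differ by the test for either gene. The 95% interval of CPE against LPE was -0.10 to 0.60 for Tjp1 and -0.24 to 0.66 for Ocln on the log2 scale.

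**Figure D2:**
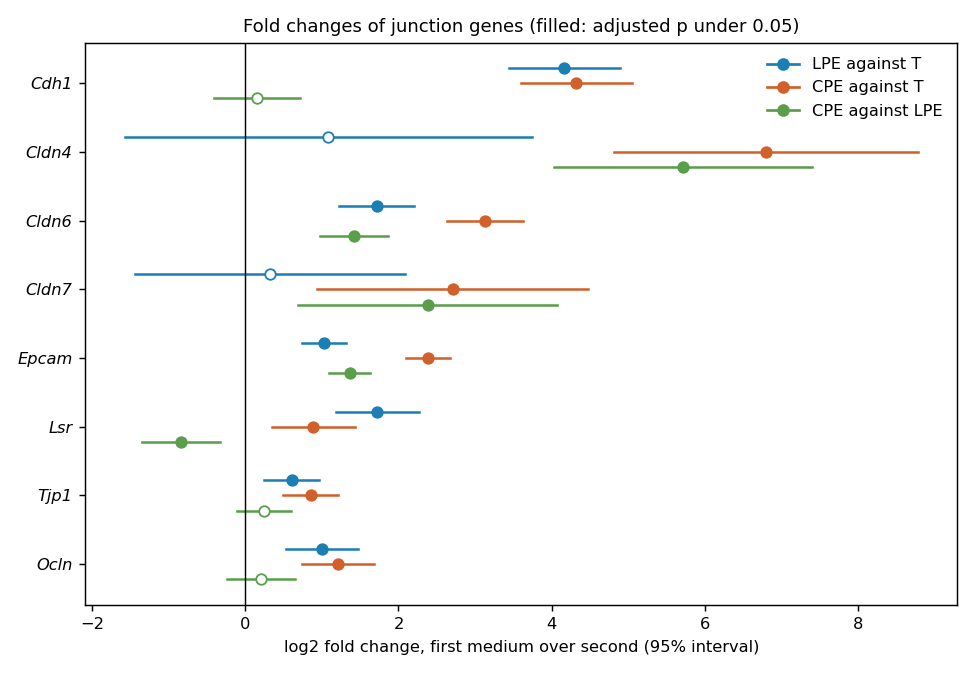
Log2 fold change of the 8 measured members in each comparison, with 95% intervals from the edgeR fit on 9 libraries (filled points are called, open points are not). Intervals of Cldn4 and Cldn7 are the widest, and in CPE against LPE Lsr lies below 0 while Cldn4, Cldn6, Cldn7 and Epcam lie above it.

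By the plain overlap of libraries, all 3 LPE libraries were above all 3 T libraries for 6 members, and all CPE above all T for 8. Over all genes tested these shares were 21.9% and 26.2%, and 25.4% and 28.1% lay wholly below T. CPE was wholly above LPE for 4 members (Cldn4, Cldn6, Cldn7 and Epcam) and wholly below for Lsr, against 16.8% and 14.5% of all genes. The trophoblast sum given above was higher in CPE than in the other media too, and the part of such cells in the CPE levels was not tested.

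The catenins that link E-cadherin to the cytoskeleton were then examined. Of 12 listed catenins, nectins and linked proteins, 10 were tested: 4 rose and 1 fell in LPE against T, 6 rose and 1 fell in CPE against T, and in CPE against LPE 1 fell. These are 50%, 70% and 10% of those tested, beside 29.7%, 32.1% and 17.8% of all genes. Jup (plakoglobin), the catenin shared by adherens junctions and desmosomes, had 62.8, 41.1 and 57.2 CPM in T, 326, 343 and 289.7 in LPE and 308, 279.6 and 198 in CPE. It rose by 2.57 on the log2 scale in LPE (SE 0.19, adjusted p = 1.8e-07) and by 2.28 in CPE (SE 0.19, adjusted p = 4.2e-07). Ctnna1 (alpha-catenin), which connects the complex to actin, rose by 1.48 in LPE and 1.83 in CPE from 77.5 ± 7.51 CPM in T (adjusted p = 4.2e-06 and 4.3e-07). Ctnnd1 (p120), which holds cadherin at the surface, rose by 1.30 in LPE against T (adjusted p = 1.7e-06), and Mllt4 (afadin), which joins nectins to actin, by 1.15 in CPE against T (adjusted p = 0.0021). Ctnnd1 was the gene that fell in CPE against LPE (log2 -0.42, adjusted p = 0.024), a call lost without LPE replicate 1 (0.0816), LPE replicate 2 (0.0573) or CPE replicate 3 (0.0965) and with voom (0.0503). No gene of the list was called higher in CPE than in LPE with all libraries, 1 was without LPE replicate 1 or CPE replicate 2, and 2 were without LPE replicate 2.

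The gene that fell in both comparisons with T was Ctnnb1 (beta-catenin), named here after its values were seen. It is the partner of E-cadherin that also carries Wnt signals to the nucleus. Its level was 1503, 1634 and 1502 CPM in T, 851, 1041 and 829 in LPE and 749.9, 816 and 914 in CPE. All T libraries were above all others. The log2 fold change was -0.77 in LPE (SE 0.11, adjusted p = 6.3e-05) and -0.90 in CPE (SE 0.11, adjusted p = 1.2e-05), opposite in sign to Cdh1, Jup and Ctnna1, and both calls held in each of 16 alternative analyses. Between CPE and LPE the test called no difference (95% interval -0.36 to 0.09).

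**Figure D3:**
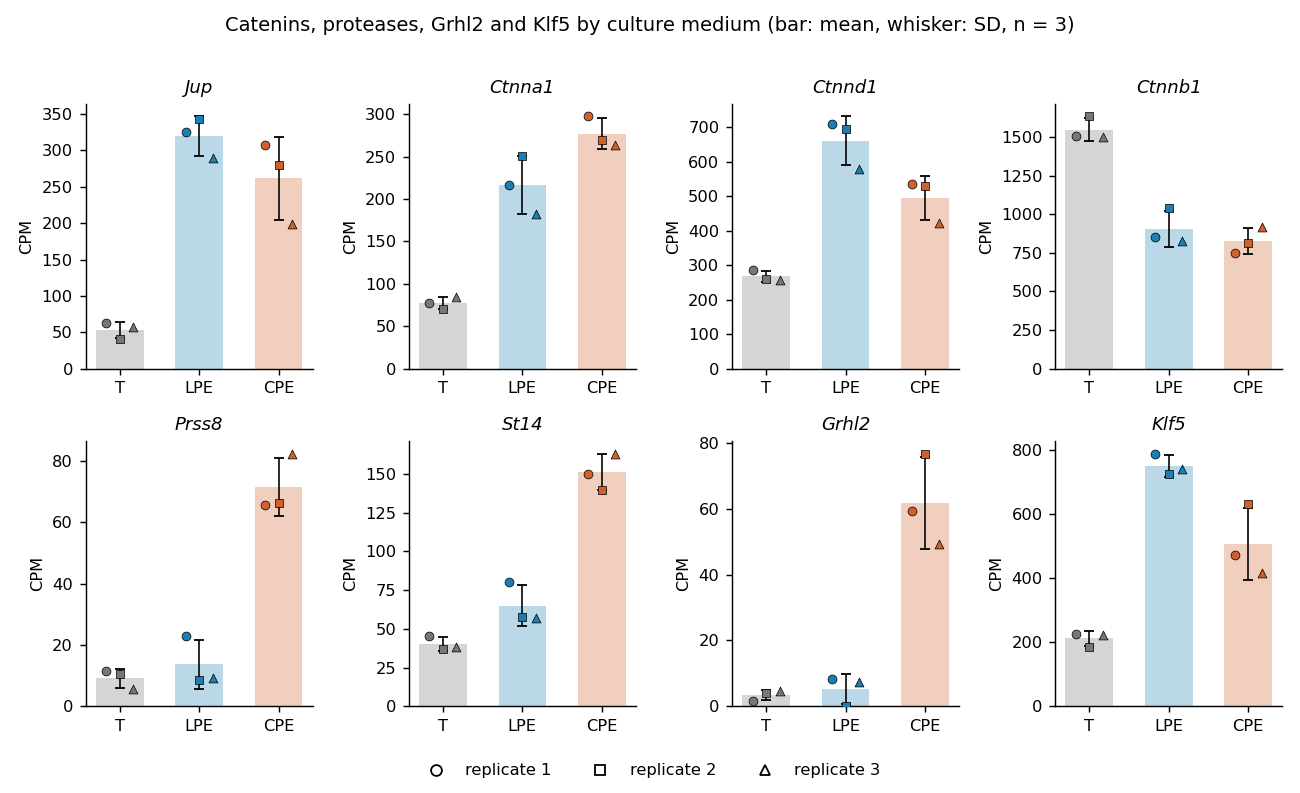
Level in every library (CPM on a linear axis from 0, 1 point per library, bars at the mean and whiskers at the SD of 3 libraries) of 4 catenins, the proteases Prss8 and St14 and the factors Grhl2 and Klf5. Jup, Ctnna1 and Ctnnd1 are higher in LPE and CPE than in T, Ctnnb1 is lower, Prss8, St14 and Grhl2 are highest in CPE, and Klf5 is highest in LPE.

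Other cadherins had few counts. Of 6 listed, 5 had rows and only Cdh5, the endothelial cadherin, passed the filter. Cdh2 (N-cadherin) had at most 18 counts in any library and Cdh3 (P-cadherin), which stands next to Cdh1 in RefSeq's GRCr8 annotation, at most 14. Cdh5 had 5.46, 5.79 and 5.58 CPM in T, 25.9, 46.001 and 17.3 in LPE and 10.9, 4.77 and 5.15 in CPE, and rose by 2.40 in LPE against T on the log2 scale (adjusted p = 0.0049). In CPE against LPE its log2 fold change was -2.10 (adjusted p = 0.014), and that call was lost without LPE replicate 2 (0.0618), CPE replicate 2 (0.0571) or CPE replicate 3 (0.0532).

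Most other claudins were absent or nearly so. All 19 listed had rows, 8 were at 0 counts in the 9 libraries and 4 passed the filter (Cldn11, Cldn12, Cldn18 and Cldn23). Cldn12 was not called in any comparison, with 83.7 ± 12.04 CPM for T, 102 ± 34.8 for LPE and 126 ± 22.01 for CPE (mean ± SD of 3). Cldn23 rose in CPE against T, where its counts were 2, 0 and 1 in T, 0, 27 and 0 in LPE and 308, 105 and 92 in CPE (adjusted p = 0.0016). The pooled level in CPE was 88.2 times that in T, with a counting interval of 30.01 to 429. In CPE against LPE, Cldn23 and Cldn18 were called higher (adjusted p = 0.012 and 0.034). Neither call held without CPE replicate 1 (0.117 and 0.144), and that of Cldn18 was also lost without T replicate 1 (0.056), T replicate 2 (0.0559), LPE replicate 2 (0.0557), LPE replicate 3 (0.0836) or CPE replicate 3 (0.0679). With all libraries kept, Cldn23 was lost with DESeq2 (0.139) and voom (0.0687), and Cldn18 with voom (0.22003) and in a fit of the 2 media compared (0.0693). In CPE against T, 2 of the list rose without LPE replicate 1 or 2. In LPE against T edgeR called 0 of the 4, 1 had an unadjusted p under 0.05, and DESeq2 called 1 lower. Of the 4, edgeR called 25% in CPE against T and 50% in CPE against LPE, where 32.1% and 17.8% of all genes were called. Cldn18 and Cldn23 needed their CPE libraries to pass the filter, so these shares are set in part by the filter. Cldn3, the neighbour of Cldn4 in RefSeq's annotation, had at most 5 counts in a library, and Cldn9, the neighbour of Cldn6, at most 1.

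Further tight junction genes changed in part. Of 15 counted here, 14 had rows and 11 were tested: 5 rose and 1 fell in LPE against T, 5 rose in CPE against T, and 1 rose in CPE against LPE. The shares called were 54.5%, 45.5% and 9.09% in that order, where 29.7%, 32.1% and 17.8% of all genes were called. Sympk (symplekin), a protein of tight junctions and of RNA 3′ processing, rose in both media. Its log2 fold change was 1.00 in CPE against T (adjusted p = 3.6e-05) and 0.94 in LPE against T (adjusted p = 7.5e-05). F11r (JAM-A), an adhesion molecule of the tight junction, rose by 0.85 in CPE from 97.6 ± 9.34 to 175 ± 13.2 CPM (adjusted p = 4.2e-04). It rose by 0.64 in LPE (adjusted p = 0.0042). Jam3, its relative, fell by 1.63 on the log2 scale in LPE (adjusted p = 0.0072), with 33.3, 29.5 and 33.01 CPM in T and 12.1, 7.15 and 11.5 in LPE. Tjp3 (ZO-3), a scaffold like Tjp1, rose by 2.63 in LPE and 2.06 in CPE against T from 2.57 ± 1.34 CPM. The LPE call was lost without T replicate 1 (adjusted p = 0.0776) or 2 (0.0511), the CPE call without T replicate 1 (0.174), 2 (0.109) or 3 (0.0777) or CPE replicate 2 (0.1296) or 3 (0.100005), without the filter (0.0561) or with a replicate block (0.0661). Without T replicate 1, 2 or 3 the count of genes that rose in LPE was 2, 2 and 3, and the count that rose in CPE was 3, 3 and 2 without the same replicates and 3 without CPE replicate 3. The gene that rose in CPE against LPE was Ybx3, a factor bound by ZO-1, with a log2 fold change of 0.40 (adjusted p = 0.021). It was not called without LPE replicate 2 (0.0527), CPE replicate 1 (0.0549) or CPE replicate 3 (0.0611), with voom (0.0998) or in a fit of the 2 media compared (0.0563).

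**Figure D4:**
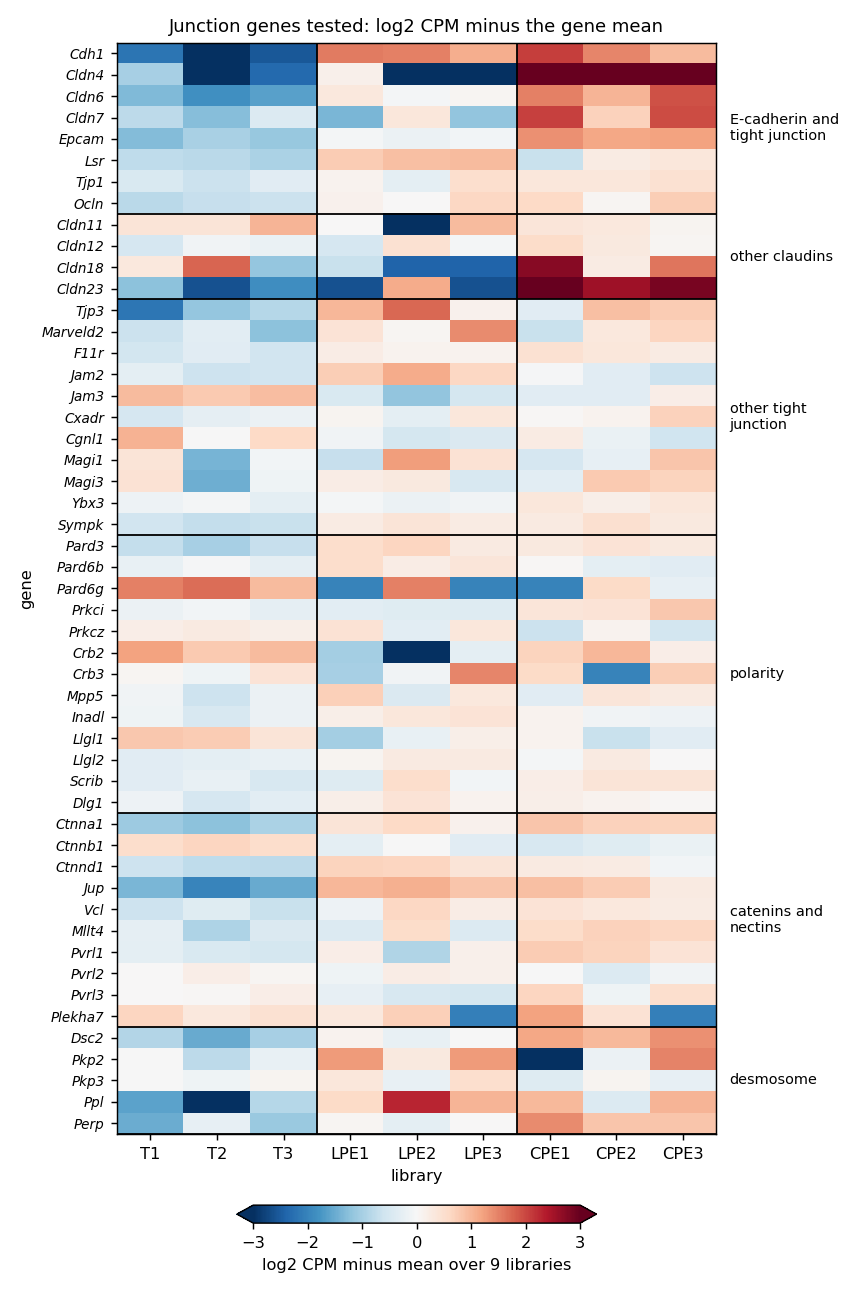
Log2 CPM of the tested junction genes in the 9 libraries, each gene centred on its own mean over them and grouped by list, with the colour scale in log2 units and saturated beyond 3 in either direction. All 8 measured members are below their mean in the 3 T libraries, Ctnnb1 is above it there, and Cldn4 stands far above it only in CPE.

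Of 13 tested genes of the polarity complexes that sit at the tight junction, 5 rose and 1 fell in LPE against T, 3 rose and 1 fell in CPE against T, and 1 rose and 1 fell in CPE against LPE. The share called was 46.2% in LPE against T, where 29.7% of all genes were called. It was 30.8% in CPE against T and 15.4% in CPE against LPE, close to the 32.1% and 17.8% of all genes. Pard3, the scaffold that positions the junction, rose by 1.30 on the log2 scale in LPE (adjusted p = 9.8e-05) and 1.15 in CPE (adjusted p = 2.4e-04). Prkci, the atypical protein kinase C of the same complex, was highest in CPE, with 201, 214 and 188 CPM in T, 182, 175 and 172 in LPE and 289.9, 300.5 and 394 in CPE, and a log2 fold change of 0.89 in CPE against LPE (adjusted p = 3.1e-04). Pard6b, its partner, was lower in CPE than in LPE by the same test (log2 -0.56, adjusted p = 0.0068). Of the genes counted, 2 or 3 rose in LPE against T when a T library, LPE replicate 2 or CPE replicate 2 or 3 was left out. In CPE against LPE 2 rose without LPE replicate 2. The gene that fell in both comparisons with T was Llgl1, which opposes the Pard complex. Its calls were lost without T replicate 1 (0.0673 in LPE and 0.0666 in CPE), T replicate 2 (0.0653 and 0.0646), LPE replicate 1 (0.0649 in LPE), CPE replicate 2 (0.0807 in CPE) or CPE replicate 3 (0.0547 in CPE), and without LPE replicates 2 and 3 the count that fell in LPE was 3 and 2.

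Desmosome genes were represented by 9 rows of 11 listed, of which 5 were tested. In both LPE and CPE 3 rose against T, and 2 rose in CPE against LPE. Calls thus covered 60%, 60% and 40% of the 5, where 29.7%, 32.1% and 17.8% of all genes were called. Dsc2 (desmocollin 2), a desmosomal cadherin, had 32.7, 20.8 and 29.8 CPM in T, 65.2, 51.9 and 59.9 in LPE and 137, 120.4 and 157 in CPE. It rose at each step without overlap, by 1.08 on the log2 scale in LPE against T (adjusted p = 0.002) and 1.22 in CPE against LPE (adjusted p = 8.1e-04). Perp, a membrane protein needed for desmosomes in mouse skin, rose by 1.94 in CPE against T (adjusted p = 1.2e-04) and 1.13 in CPE against LPE (adjusted p = 0.0096, 0.0565 without CPE replicate 1). The third gene, Ppl (periplakin), had 2, 0 and 5 counts in T, 23, 83 and 32 in LPE and 34, 15 and 32 in CPE. Without T replicate 1, 1 of the 3 was called in LPE against T, as Ppl and Perp then had adjusted p-values of 0.0584 and 0.225. The Ppl call in LPE was also lost without T replicate 2 (0.0561), and its call in CPE against T (adjusted p = 0.0488) without T replicate 1 (0.1399), 2 (0.156) or 3 (0.053), LPE replicate 3 (0.0534) or CPE replicate 1 (0.102) or 3 (0.114), with a replicate block (0.0777) or with reads on either strand (0.0522). The Perp call in LPE against T (adjusted p = 0.0485) was lost when any 1 library other than T replicate 2 or LPE replicate 2 was left out (0.0502 to 0.225), and in a fit of the 2 media compared (0.0749), with the block (0.0657) and with reads on either strand (0.0517).

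Epcam is cut by the membrane protease matriptase (St14), which acts with prostasin (Prss8) and is held back by the inhibitors Spint1 and Spint2. All 4 were tested, and Prss8 and St14 rose in CPE against LPE as well as against T. Calls were made for 75% of the 4 in LPE against T, 100% in CPE against T and 50% in CPE against LPE. The shares over all genes were 29.7%, 32.1% and 17.8%. Prss8 had 11.5, 10.4 and 5.58 CPM in T, 23.01, 8.703 and 9.29 in LPE and 65.8, 66.3 and 82.5 in CPE, a log2 fold change of 2.97 in CPE against T (adjusted p = 7.0e-05) and 2.38 against LPE (adjusted p = 6.1e-04). St14 had 45.3, 37.1 and 38.1 CPM in T, 80.2, 57.5 and 57.1 in LPE and 150.1, 139.7 and 163 in CPE and rose by 1.91 in CPE against T (adjusted p = 4.6e-06) and 1.22 against LPE (adjusted p = 4.4e-04). CPE libraries were above all others for both proteases, the same medium in which Epcam, Cldn4 and Cldn7 were highest. In CPE against T, 3 of the 4 rose and 1, Spint2, fell. The rise of Spint1 (0.51 log2, adjusted p = 0.037) was lost without T replicate 1 (0.1401), 2 (0.0901) or 3 (0.0896) or CPE replicate 1 (0.105) or 2 (0.102), and the fall of Spint2 was not called without any 1 of T replicates 1 to 3, LPE replicate 1, CPE replicate 2 or CPE replicate 3. In LPE against T, 2 rose and 1 fell, with small changes for St14 (0.69 log2), Spint1 (0.55) and Spint2 (-0.45). The count that rose was 1, 0 and 0 without T replicate 1, 2 and 3 and 0 without LPE replicate 1, and Spint2 was not called without T replicate 2 (0.193), T replicate 3 (0.0606), LPE replicate 1 (0.144) or LPE replicate 2 (0.104), or with a replicate block (0.0565).

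Regulators of epithelial transcription and splicing were counted in the same way. Of 10 listed transcription and splicing factors 8 were tested: 4 rose in LPE against T and 5 in CPE against T, while 2 rose and 1 fell in CPE against LPE. These are 50%, 62.5% and 37.5% of the 8, beside 29.7%, 32.1% and 17.8% of all genes. Grhl2, a Grainyhead-like factor known in mouse to activate Cdh1 and Cldn4, had 3, 7 and 10 counts in T, 26, 0 and 23 in LPE and 201, 338 and 153 in CPE. As levels these were 1.64, 4.05 and 4.65 CPM, 8.31, 0 and 7.37 CPM and 59.3, 76.8 and 49.3 CPM. Grhl2 rose by 4.14 on the log2 scale in CPE against T (SE 0.75, adjusted p = 5.9e-04) and 3.56 against LPE (SE 0.69, adjusted p = 0.0021), and was not called in LPE against T (log2 0.58, 95% interval -1.10 to 2.25). Its CPE libraries alone were high, as for Cldn4, whereas Cdh1 was high in LPE as well. Klf5, a factor of epithelial and early embryonic cells, had 227, 186 and 224 CPM in T, 789.8, 725 and 741 in LPE and 474, 633 and 415 in CPE, with adjusted p = 3.1e-07 in LPE against T and 8.4e-06 in CPE against T. It was lower in CPE than in LPE (log2 -0.57, adjusted p = 0.0093). Esrp1, which directs epithelial splicing, rose by 1.04 in LPE (adjusted p = 0.0012). Ovol1, another epithelial factor, had 0 counts in T and LPE and 29, 15 and 14 in CPE, at an adjusted p of 0.031 against each of the other media that no omission of a T or CPE library left under 0.05 (0.0515 to 0.121 against T). Ovol1 passed the filter through CPE alone, so its calls and the shares above are set in part by the filter. Its call was also lost with a replicate block (0.0916 against T and 0.0982 against LPE) and with reads on either strand (0.0687 and 0.235). Against LPE it was lost with voom (0.0824) and in a fit of the 2 media compared (0.0562) as well. The count that rose in CPE against T was 3 without T replicate 1, T replicate 3, CPE replicate 1 or CPE replicate 2. The count that rose against LPE was 1 without any library except LPE replicate 2, and the count that fell against LPE was 2 without LPE replicate 1, LPE replicate 2 or CPE replicate 1.

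Of 6 listed E-box repressors of Cdh1, among them the Snail and Zeb factors, Snai2 had 0 counts in all libraries and 2 passed the filter. Snai1 had 8.18, 11.6 and 6.04 CPM in T, 19.5, 16.2 and 8.01 in LPE and 10.9, 17.9 and 11.6 in CPE, and Tcf3 (E2A) had 64.4, 81.1 and 62.3 CPM in T, 62.01, 53.8 and 72.1 in LPE and 109, 75.2 and 63.5 in CPE. Their media overlapped, and edgeR called 0 of the 2 in each comparison, with 0 at an unadjusted p under 0.05. Zeb1, which did not pass the filter, had 5, 9 and 6 counts in T, 11, 0 and 9 in LPE and 0, 0 and 0 in CPE. DESeq2, which does not use that filter, called Zeb1 lower in CPE than in T (DESeq2 adjusted p = 0.0094) and than in LPE (0.039). With edgeR it passed and was called lower in CPE than in T without a filter (adjusted p = 0.037), without LPE replicate 2 (0.012) or without LPE replicate 3 (0.041), and lower than in LPE without LPE replicate 2 (0.029). Zeb2 had at most 2 counts in a library and Twist1 at most 5.

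The genes most like Cdh1 and Cldn4 across the 9 libraries were taken from 7860 other tested genes by the root mean square difference of log2 CPM (prior count 2) after centring. For Cdh1 they were Pcsk6 (0.381), Ctsb (0.529), Osgin1 (0.574), Tspan1 (0.593) and Myo7b (0.648). Ctsb, the lysosomal protease cathepsin B, had 36.99 ± 3.99 CPM for T, 445 ± 81.7 for LPE and 562 ± 114 for CPE, and Pcsk6, a proprotein convertase, had 1.67 ± 1.11, 30.03 ± 6.85 and 34.5 ± 7.51 CPM (mean ± SD of 3). Both were low in T, and their LPE and CPE libraries overlapped. For Cldn4 they were Igf2 (0.842), Mmp15 (0.848), Gata2 (0.867), Ndrg1 (1.003) and Nrp1 (1.04), whose larger distances reflect a poorer match. Igf2, the fetal growth factor, had 2.24 ± 0.528 CPM for T, 2.34 ± 4.06 for LPE and 347 ± 176 for CPE. Nrp1, a co-receptor, had 0 counts in all T and LPE libraries and 37.02 to 93.4 CPM in CPE. Genes of low count in T or LPE are pulled together by the prior count, and likeness over 9 libraries of 3 media is a description only.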

How the data were processed

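The 9 deposited tables hold raw counts of reads per gene, made by the authors, on either strand, on the opposite strand and on the gene's strand. STAR 2.5.1, Trimmomatic 0.33, CASAVA 1.8.2 and DESeq2 are named in the submitters' processing notes, with build rn6. The annotation used for counting is not stated in the labels. Gene-strand counts were used. Of all reads, 51.7% to 67.6% mapped to several places and entered no gene, which lowers the counts of genes that have close copies. Together with unmapped (6.32% to 8.67%) and ambiguous reads (1.11% to 2.46%) they were left out. Reads that met no annotated feature on the counted strand (13.9% to 26.1%) were left out too.

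All 9 libraries were fitted in edgeR 4.0.16 (R 4.3.3) with 1 mean for each medium, after filterByExpr (10 counts, 15 in total) and TMM scaling, and compared by quasi-likelihood F tests. A gene high in a single medium can pass that filter through this medium. Among the named genes, Cldn4, Cldn7, Cldn18, Cldn23, Elf5 and Ovol1 needed their CPE libraries to pass. Shares called in lists that hold such genes are set in part by the filter. SEs and 95% intervals come from its F statistic. The spread of a gene was estimated as shared by all media, so the T libraries, which varied less, also entered CPE against LPE. In an edgeR fit of only LPE and CPE, Cldn7 was no longer called (adjusted p = 0.0905). Alternatives, including DESeq2 1.42.0 and limma 3.58.1, are in the closing section. No gene lengths were used, so levels are not compared between genes. All members were named. From each further list, up to 3 called genes per comparison with the largest change and at least 5 CPM could be named. Epithelial regulators and E-box repressors of Cdh1 could be named freely. Members and lists were chosen with earlier results of these data known. Values of some listed genes are not reported here, and the list counts leave them out.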

Additional observations from a re-analysis of the deposited data

How the results depend on the processing

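Alternatives were RLE size factors, DESeq2, no filter on low counts, a fit of only the 2 media compared, reads on either strand, limma voom with quality weights, a replicate block and the omission of each library. The members called numbered 5 to 6 in LPE against T, 6 to 8 in CPE against T and 3 to 5 in CPE against LPE when 1 library was left out, with 3 in the last without LPE replicate 3 or CPE replicate 1. Other alternatives gave 6, 8 and 4 or 5. Of 382 alternative values for members 354 kept direction and call and 24 lost a call. The 4 that changed sign were uncalled: Cldn4 in LPE against T at -0.60 with voom and from -4.39 to 2.70 over the omissions of 1 library (lowest without LPE replicate 1), Cldn7 from -0.62 to 0.67 (lowest without LPE replicate 2), and Cdh1 in CPE against LPE from -0.18 to 0.39 (lowest without CPE replicate 1). Grhl2 in LPE against T was -0.72 with voom. Counts over all genes stayed within 1.5 times, at 1896 to 2952, 2083 to 3907 and 1103 to 1948. Of the further lists, the tight junction genes that rose in LPE against T went from 5 to 3 without the filter or with the replicate block, and the polarity genes from 5 to 3 with these or with reads on either strand. List counts of 3 or fewer moved by at most 2 in the alternatives that keep all libraries. The cause of these shifts was not tested.

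Replicate numbers showed no pairing over all genes: deviations of same-numbered libraries correlated at -0.03 to 0.01 over 9 pairs. Those of differently numbered libraries correlated at -0.05 to 0.04 over 18 pairs. Whether cultures were grown in pairs is not settled by these values. With a replicate block the members called numbered 6, 8 and 4 in the 3 comparisons, Cldn7 being lost in CPE against LPE (adjusted p = 0.112). Counts of Cldn4 and Cldn7 were low in T and LPE, at 0 to 22 per library. Depth was lower in T, and LPE libraries held about as many counts as CPE replicates 1 and 3. Whether depth bears on these low counts was not tested. Fewer genes were detected in LPE (8607 to 9314) and CPE (9162 to 9878) than in T (10143 to 10621). Genes with exactly 1 count numbered 26 to 58 in LPE, 33 to 92 in CPE and 511 to 791 in T. Whether transcripts of low level were lost from the LPE and CPE libraries was not tested. Counting intervals cover counting error only.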

Other observations

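Connexins, which form the gap junctions of the same lateral membrane, were measured beside the junction genes. Of 9 listed, 4 were tested, and 2 rose in LPE against T and 2 in CPE against T. That is 50% in each, where 29.7% and 32.1% of all genes were called. In CPE against LPE 0% of the connexins and 17.8% of all genes were called. Gja1 (connexin 43) had 867, 958 and 830.4 CPM in T, 1188, 1121 and 1205 in LPE and 1130.3, 979 and 1152 in CPE. It rose by 0.40 on the log2 scale in LPE (edgeR adjusted p = 0.0043) and by 0.30 in CPE (adjusted p = 0.025), the latter lost without T replicate 1 (0.0983), T replicate 3 (0.131), CPE replicate 1 (0.0782) or CPE replicate 3 (0.0875). Gjb2 (connexin 26) had 2, 2 and 1 counts in T, 44, 0 and 15 in LPE and 97, 89 and 13 in CPE, and its call in CPE against T (adjusted p = 0.019) was lost without T replicate 1 (0.0615), 2 (0.0627) or 3 (0.0762) or CPE replicate 1 (0.0721) or 2 (0.0546). Gjc1 (connexin 45) had 4, 2 and 5 counts in T, 80, 30 and 22 in LPE and 6, 8 and 11 in CPE, and its call in LPE against T (adjusted p = 0.029) did not hold without LPE replicate 1 (0.169) or without T replicate 1 (0.0982), 2 (0.121) or 3 (0.0949). The counts that rose in CPE against T were 0 without T replicate 1, T replicate 3 or CPE replicate 1 and 1 without T replicate 2, CPE replicate 2 or CPE replicate 3, and in LPE against T 1 without T replicate 1, 2 or 3 or LPE replicate 1.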
